A study of Mus musculus with 2 samples.

Results

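The genes described here build and run the primary cilium, the single sensory projection that most embryonic cells carry. They are 51 genes found by symbol from a fixed list of names, of 38926 genes listed, and they cover intraflagellar transport (IFT), its motors, the BBSome, the transition zone and the ciliary part of Hedgehog signalling. Of these, 50 were found under the symbol itself, and Ift22 was found under its older symbol Rabl5, which RefSeq gives as a synonym and which starts at the same base. Polyadenylated RNA came from pleuroperitoneal folds (PPFs), paired structures that give rise to the connective tissue of the diaphragm, in wild-type mouse embryos at embryonic day 12.5. The strain was mixed (129s/SvlmJ-C57/BL6J), and the only group held 2 libraries, replicates 1 and 2, each made from 2 pooled PPF pairs dissected by hand after the heart and lungs had been taken off. The series gives its aim as ranking candidate genes from human studies of congenital diaphragmatic hernia, so the comparisons below are between genes and between the libraries, with no other tissue, stage or genotype.

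In intraflagellar transport, trains of IFT-B and IFT-A complexes are carried out to the ciliary tip by kinesin-II and back by dynein-2. The BBSome moves membrane proteins on these trains, and the transition zone at the ciliary base acts as a gate. In vertebrates Hedgehog signalling runs through the cilium, where Smo, Sufu, Kif7 and the Gli factors meet, and mutation of many of these genes causes ciliopathies with skeletal, kidney and brain defects. Mice that lack Kif7 function have been described with diaphragm defects.

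Replicate 1 held 26370253 counts and replicate 2 held 23255957, and the members had between 169 and 2408 counts in a library. Levels are in TPM, the deposited unit in which a count is divided by the length of its gene and every library is then brought to an equal total. Expressed means at least 1 TPM in replicate 1 and in replicate 2. The tissue label was checked against markers: all 10 PPF mesenchyme genes were expressed, among them Gata4 at 173 and 178 TPM and Wt1 at 91.6 and 89.8 TPM in replicates 1 and 2. Muscle progenitor genes (8 of 8, summed level 2776 and 2868 TPM), mesothelial genes (6 of 6, 477 and 516 TPM), erythroid genes (6 of 6, 5522 and 5180 TPM) and endothelial genes (6 of 6, 194 and 224 TPM) were expressed too. Markers of neighbouring tissue were expressed in part: 8 of 10 hepatoblast, 7 of 10 neuronal and 5 of 10 mesonephros and gonad genes. A count of expressed markers therefore does not by itself single out the PPF. The levels of these neighbouring markers differed between the dissections. The summed level of 10 hepatoblast genes was 139 TPM in replicate 1 and 342 TPM in replicate 2, that of 10 neuronal genes 51.5 and 92.4 TPM, and that of 10 mesonephros and gonad genes 59.4 and 32.0 TPM. In bulk RNA, fewer cells of a type and less RNA per cell cannot be told apart.

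A sequence feature that the choice of members did not use was looked for first, because RFX transcription factors are known to bind a palindromic X-box in the promoters of cilium genes. RefSeq promoter windows (GRCm38.p6, 250 bases before to 50 after each start) were found for 46 of the 51 members, and both strands were searched for the letters GTTNCC followed, after a gap of 1, 2 or 3 bases counted from the last C to the first G, by GGNAAC. A match stood in 5 of the 46 members (10.9%) and in 0.903% of all 27025 genes with a window (0.927% of expressed protein-coding genes). The 5 matches are shown with up to 8 bases on each side, read 5′ to 3′ on the strand of the gene, with the match in capitals.
Bbs7 (chr3:36613489-36613518, minus strand, match at -121 to -108 from the start): gcgccccgGTTGCCTTGGAAACcggccagc
Ift57 (chr16:49699226-49699254, plus strand, match at -60 to -48 from the start): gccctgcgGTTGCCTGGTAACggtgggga
Mks1 (chr11:87853183-87853212, plus strand, match at -24 to -11 from the start): gcgtctccGTTGCCAGGGGAACgaggcacc
Tctn1 (chr5:122264411-122264432, minus strand, match at 37 to 50 from the start): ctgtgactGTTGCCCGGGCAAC
Tctn3 (chr19:40612351-40612379, minus strand, match at -140 to -128 from the start): tcccagcgGTTGCCAGGTAACgggaacca

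The positions are counted from RefSeq starts. The deposited start of Ift57 is base 49699233, so by that model its match lies just inside the gene. All 5 matches open with the letters GTTGCC. That stretch alone, which the matches above also contain, stood on either strand in 17 of 46 members (37.0%) and in 14.1% of all genes with a window. These are shares of letters, with no test, and no binding was measured. Of the 6 RFX genes listed, Rfx1 had 26.4 and 31.2 TPM, Rfx5 18.9 and 21.3 TPM, Rfx7 16.9 and 19.8 TPM, Rfx3 8.13 and 8.95 TPM, Rfx2 6.43 and 7.26 TPM and Rfx4 0.449 and 0.786 TPM in replicates 1 and 2. With Myb, Foxj1, Gmnc and Mcidas they form a list of 10 transcription factors, of which 6 were expressed and the median was 5.19 TPM. Between the libraries, compared as described below, 2 of the 8 tested were higher in replicate 2, Rfx1 (adjusted p = 0.0195, exact binomial) and Rfx7 (adjusted p = 0.00024, exact binomial), and none was lower, beside 8.85% higher and 8.65% lower over all genes tested.

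A minority of the members had a close neighbour in the opposite direction. A protein-coding gene on the other strand started within 1000 bases upstream of 10 of the 51 members (19.6%), compared with 9.6% of expressed protein-coding genes (GENCODE M21), shares that were not tested. The neighbours were unlike each other in level. Next to Dync2h1, at 74 bases, stood Dcun1d5 with 166 and 150 TPM, and next to Ift80, at 168 bases, stood the condensin gene Smc4 with 129 and 134 TPM, whereas Entpd1, 133 bases from Tctn3, had 5.49 and 6.93 TPM. Outside this distance, Evc and Evc2 lie head to head on chromosome 5, with 4932 bases between them by the deposited coordinates and fewer by those of GENCODE M21, where Evc extends to base 37336894.

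Every member was expressed. The 51 members ranged from 6.14 ± 0.230 TPM for Tmem67 to 146 ± 1.01 TPM for Arl3 (SD, n = 2 here and below), 43 had at least 10 TPM in both libraries and 16 at least 30 TPM. For comparison, 63.5% of the 21393 protein-coding genes were expressed, 46.4% reached 10 TPM and 28.7% reached 30 TPM. The members' median was 20.4 TPM in replicate 1 and 20.6 TPM in replicate 2, against 26.8 TPM for the mean levels of all expressed protein-coding genes. The members kept to the middle of that distribution: 40 of 51 (78.4%) lay between its quartiles of 9.64 and 60.3 TPM, 4 above and 7 below. Together they took up 0.169% of all counts in replicate 1 and 0.166% in replicate 2.

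The order of the members by level was close to the same in both libraries. No member moved by more than 5 places and 47 moved by at most 2. Fine steps in the order are not resolved, since 28 of the 50 neighbouring pairs had library ranges that overlapped. By deposited length, longer members had lower TPM, with a Spearman rho of -0.57 across the 51 members and -0.055 across expressed protein-coding genes. These values describe genes that share libraries and are not replicates. TPM is itself divided by this length, several short members are longer in GENCODE M21, and rho with M21 lengths was not computed. By role, the medians of mean TPM ran from the 3 genes of lipidated cargo and phosphoinositides (58.8 TPM) through IFT-B (45.8 TPM), motors (30.2 TPM), Hedgehog transduction (27.3 TPM), IFT-A (14.7 TPM) and the BBSome with its chaperones (13.96 TPM) to the transition zone and basal body (12.5 TPM). This order was the same in each library. It covers the members alone, and other subunits of these complexes, given further below, were left out of the medians.

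**Figure D1:**
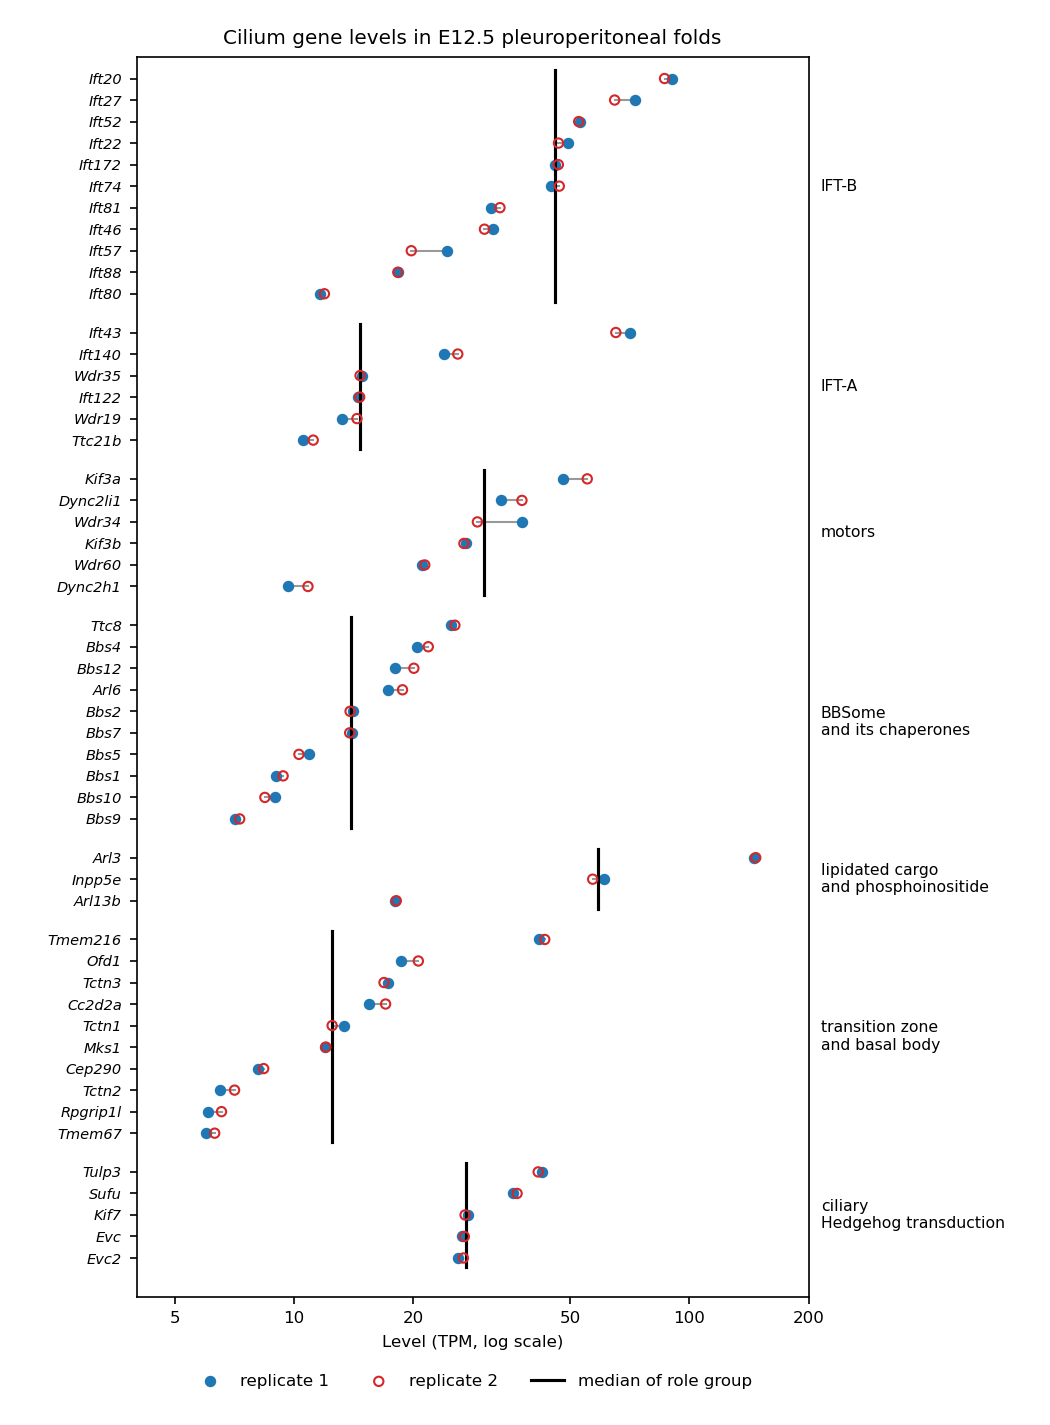
Level of each of the 51 members in TPM (log axis) in replicate 1 (filled points) and replicate 2 (open points), grouped by role, with the role's median of mean TPM as a vertical line. Arl3 stands highest at 146 TPM and Tmem67 lowest at 6.14 TPM, and most pairs of points nearly coincide.

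The deposited gene lengths bear on these levels. The GENCODE M21 exon length was more than 2 times the deposited length for 7 members: Ift22 (deposited 911 bases, M21 3608), Arl3 (822 and 2490), Ift27 (1012 and 2864), Wdr19 (4403 and 11278), Bbs4 (2542 and 6039), Wdr60 (3725 and 8110) and Ift43 (775 and 1651). The deposited counts are those of the deposited models, so a longer model need not be the better divisor. With M21 lengths, Arl3 would stand at 54.9 TPM in place 5, Ift27 at 27.6 TPM and Ift22 at 13.8 TPM, and Ift20 would lead at 100.3 TPM. The equal total rescales all genes, so members of unchanged length, such as Ift20, stand 1.135-fold higher with M21 lengths. The IFT-B median would be 27.6 TPM, below Hedgehog transduction (31.0 TPM) and the motors (29.7 TPM). IFT-A, the BBSome group and the transition zone kept places 5, 6 and 7 with either length. At the low end, the 5 lowest members with M21 lengths would be Bbs1, Tmem67, Cep290, Wdr19 and, last, Rpgrip1l at 4.81 TPM.

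IFT-B carries cargo towards the tip and holds tubulin-binding and kinesin-binding subunits. All 11 members were above 10 TPM. Ift20, the subunit that also sits at the Golgi (chromosome 11, 78536361 to 78541737), was highest with 90.2 TPM in replicate 1 and 86.5 TPM in replicate 2. Ift27, a small GTPase subunit, had 73.0 and 64.7 TPM, and Ift52, which anchors the core of the complex, had 52.7 and 52.5 TPM. Each of these 3 was among the 7 highest members in both libraries. Ift22, another small GTPase subunit, had 49.3 and 46.7 TPM. Ift172, a large peripheral subunit, had 45.7 and 46.6 TPM. Tubulin-binding Ift74 and Ift81, which pair in the complex, stood at 44.8 and 46.9 TPM and at 31.6 and 33.2 TPM, so that the level of Ift74 was 1.42 times that of Ift81 in replicate 1 and 1.41 times in replicate 2. This ratio depends on the length used, which in M21 differs for Ift81 and not for Ift74. M21 lengths give 52.0 TPM for Ift74 and 21.7 TPM for Ift81.

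The lower end of the IFT-B members held Ift46 at 31.8 and 30.3 TPM and Ift57 at 24.4 and 19.8 TPM. Below them were Ift88 at 18.4 and 18.3 TPM and Ift80 at 11.6 and 11.9 TPM. Ift88 is the subunit altered in the Oak Ridge polycystic kidney mouse, and its level was 0.348 and 0.349 times that of Ift52. From Ift20 to Ift80 the mean levels spanned 7.49-fold, and the library ranges of these 2 genes lay far apart.

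IFT-A is needed for return transport and for import of membrane proteins. By deposited TPM its highest member was Ift43, its small subunit, which had 70.7 TPM in replicate 1 and 65.1 TPM in replicate 2. The next, Ift140, had 24.0 and 26.0 TPM. The other 4 lay close together: Wdr35 at 14.9 and 14.7 TPM, Ift122 at 14.5 and 14.7 TPM, Wdr19 at 13.3 and 14.4 TPM and Ttc21b at 10.5 and 11.2 TPM. Of the 11 IFT-B members, 10 had a mean level above the IFT-A median of 14.7 TPM, the exception being Ift80. IFT-B subunits outside the members had mean levels of 30.1 (Cluap1), 25.4 (Traf3ip1), 16.3 (Hspb11), 13.9 (Ttc26), 8.22 (Ttc30a1), 7.21 (Ttc30b) and 0.987 TPM (Ttc30a2). Of these, Ttc26 and the Ttc30 genes lay below the IFT-A median. With M21 lengths Ift43 stood at 36.2 TPM, much closer to Ift140 at 25.7 TPM, Wdr19 stood at 6.13 TPM, and Ift22 as well as Ift80 lay below the IFT-A median of 14.8 TPM.

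Both kinesin-II motor chains were expressed. Kif3a (chromosome 11, 53567379 to 53601105) had 47.9 and 55.2 TPM and Kif3b 27.3 and 26.9 TPM, so Kif3a was 1.76 times as high as Kif3b in replicate 1 and 2.05 times in replicate 2. Kifap3, the non-motor subunit that joins them, was higher than both at 86.7 and 85.6 TPM. In dynein-2 the heavy chain gene Dync2h1, the longest member at 16161 bases, was lowest at 9.67 and 10.9 TPM. Its light intermediate chain gene Dync2li1 was at 33.4 and 37.7 TPM, that is 3.45 and 3.48 times the heavy chain. The intermediate chain genes Wdr34 and Wdr60 stood at 37.6 and 29.1 TPM and at 21.1 and 21.4 TPM. With M21 lengths Wdr60, at 11.1 TPM, would be the lowest of the dynein-2 genes in place of Dync2h1 at 11.5 TPM. Of the light chain genes that dynein-2 shares with cytoplasmic dynein, Dynlrb1 reached 226 and 225 TPM and Dynll1 157 and 134 TPM.

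None of the 10 members of the BBSome group reached 30 TPM, while Bbip1, a BBSome subunit outside the members, had 38.4 and 37.0 TPM. Ttc8, also called Bbs8, was highest of the members with 24.9 and 25.5 TPM. Bbs4 had 20.4 and 21.9 TPM, Bbs2 14.1 and 13.9 TPM and Bbs7 14.03 and 13.8 TPM. The remaining subunits among the members were lower: Bbs5 had 10.9 and 10.3 TPM, Bbs1 9.02 and 9.39 TPM, and Bbs9 7.12 and 7.29 TPM. Ttc8 was 3.50 times as high as Bbs9 in both libraries. The order within the group changed with M21 lengths: Bbs12 led at 21.6 TPM before Ttc8 at 20.8 TPM, and Bbs4 fell to 10.1 TPM, below Bbs2 (15.3 TPM), Bbs5 (12.1 TPM) and Bbs7 (11.6 TPM). Arl6, the GTPase that recruits the BBSome to membranes, had 17.3 and 18.8 TPM. Of the chaperonin-like genes that help assemble the complex, Bbs12 had 18.0 and 20.1 TPM. Bbs10, which had the fewest counts of any member (209 and 169), had 8.95 and 8.44 TPM. Mkks, such a gene outside the members, had 29.5 and 26.9 TPM.

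Among the genes for lipidated cargo, Arl3, the GTPase that releases lipid-modified proteins inside the cilium (chromosome 19, 46531109 to 46573085), had 146 TPM in replicate 1 (95% exact Poisson interval 137 to 155) and 147 TPM in replicate 2 (138 to 157), intervals that cover counting error only. It lay above 92.4% of expressed protein-coding genes. Arl13b, the ciliary membrane GTPase that activates Arl3, stood 8.08 and 8.11 times lower at 18.0 and 18.1 TPM. Both the place of Arl3 and this ratio rest on its deposited length of 822 bases, and M21 lengths give 54.9 TPM for Arl3 and 20.5 TPM for Arl13b. Inpp5e, a phosphoinositide 5-phosphatase of the ciliary membrane, had 60.7 and 56.9 TPM. However, 20.3% of its exon bases are shared with Pmpca on the other strand (mean 104 TPM). Reads of Pmpca may be among its counts, or its own reads there may have been lost.

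The transition zone and basal body group held 4 of the 5 lowest members by deposited TPM, the other being Bbs9, and 3 of the 5 lowest with M21 lengths: Tmem67 with 5.98 and 6.31 TPM, Rpgrip1l with 6.08 and 6.56 TPM, Tctn2 with 6.49 and 7.08 TPM and Cep290 with 8.13 and 8.39 TPM. Tmem67 is a membrane receptor-like protein, Rpgrip1l a scaffold and Cep290 a link between membrane and microtubules. The highest was the membrane protein gene Tmem216 at 41.6 and 43.1 TPM, 6.85 and 6.57 times Rpgrip1l. Of the tectonic genes, Tctn3 had 17.2 and 16.9 TPM, Tctn1 13.4 and 12.5 TPM, and Tctn2 the level above, so the family differed by 2.66 and 2.39 times from highest to lowest. With Hvcn1 and Gm15481, Tctn1 has 25.5% of its GENCODE M21 exon bases in common. Its deposited model is shorter (4856 bases, M21 8295), and the share of that model was not computed. Cc2d2a had 15.5 and 17.1 TPM, Mks1 12.0 TPM in each library, and Ofd1, the X-linked gene of a centriolar protein, 18.6 and 20.6 TPM.

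The 5 genes of ciliary Hedgehog transduction varied least, with 1.59-fold between the highest and the lowest. Tulp3, which works with IFT-A to bring receptors into the cilium, had 42.3 and 41.5 TPM, and Sufu, the inhibitor that holds Gli proteins, 35.8 and 36.7 TPM, an order that turned with M21 lengths (34.1 TPM for Tulp3 and 37.1 TPM for Sufu). Kif7, a kinesin of the ciliary tip, had 27.5 and 27.1 TPM, and 20.3% of its exon bases are also exon of 9330171B17Rik or Ticrr. Evc (chromosome 5, 37289098 to 37333566) and Evc2 (37338499 to 37425055), whose products form a complex near the ciliary base that passes on the Smo signal, stood at 26.7 and 27.0 TPM and at 26.0 and 26.8 TPM. The ratio of Evc to Evc2 was 1.02 in replicate 1 and 1.01 in replicate 2, and their library ranges overlapped.

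The libraries were then compared to see how far separate dissections differed in these genes. Each of 19433 genes whose counts in replicates 1 and 2 summed to 10 or more was tested by an exact binomial test (two-sided, with TMM-scaled library sizes and Benjamini-Hochberg adjustment over all of these genes). Such a test sets these 2 libraries against each other, not conditions or animals, and allows for counting error alone. Of the 51 members, 1 was higher in replicate 2 and 3 were lower at an adjusted p under 0.05, 7.84% in all, where 17.5% of all genes tested (8.85% higher and 8.65% lower) and 20.6% of protein-coding genes tested (10.5% higher and 10.1% lower) were called. None was called with a 2-fold difference, beside 1.26% of all genes tested (0.71% higher and 0.551% lower). Among protein-coding genes tested that share was 1.09% (0.678% higher and 0.411% lower). With shares this small, 0 of 51 members is close to the background. No member reached 1.5-fold either, a threshold for which no share over all genes is given. At an unadjusted p under 0.05, without regard to fold, the exact binomial test had 6 members. Over all genes tested that share was at least the 17.5% called above, because adjustment never lowers a p-value. The median log2 ratio of replicate 2 to replicate 1 was -0.019 over the members and -0.014 over all genes tested. Between replicates 1 and 2 the members varied with a median coefficient of variation of 3.24%, compared with 5.09% for expressed protein-coding genes. The sets were not matched for level: expressed genes were taken from 1 TPM upwards, while no member had a mean below 6.14 TPM.

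Wdr34 (chromosome 2, 30031546 to 30048881) had the largest difference in size, with 753 counts in replicate 1 and 499 in replicate 2, and its log2 ratio was -0.41 with a 95% interval of -0.58 to -0.24 (adjusted p = 1.72e-05, exact binomial). Ift57 (chromosome 16, 49699233 to 49765126) had 592 and 412 counts and stood at -0.34 on the log2 scale, between -0.52 and -0.15 (adjusted p = 0.00267, exact binomial). Its match to the X-box letters is shown above, and 7.86% of its exon bases are shared with Gm15518. Inpp5e (chromosome 2, 26396249 to 26409200) had 2214 and 1780 counts and stood at -0.13, between -0.22 and -0.040 (adjusted p = 0.0299, exact binomial). Kif3a alone was higher in replicate 2, with 1456 and 1438 counts and stood at 0.17, between 0.060 and 0.27 (adjusted p = 0.0155, exact binomial).

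These 4 belong to 3 roles and include both a kinesin-II and a dynein-2 chain. Over all genes, edgeR estimated the spread between the libraries as a common biological coefficient of variation of 7.99%. With this spread added to the counting error, edgeR's exact test called none of the 4. The spread came from the same 2 libraries that were then compared, so ratios of this size could hardly be called. That outcome therefore cannot decide whether the 4 differ. The log2 ratio rose with gene length, with a Spearman rho of 0.32 across the members and 0.35 across expressed protein-coding genes. The hepatoblast, neuronal and mesonephros markers given above also moved between the libraries, and their part in these differences was not tested.

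**Figure D2:**
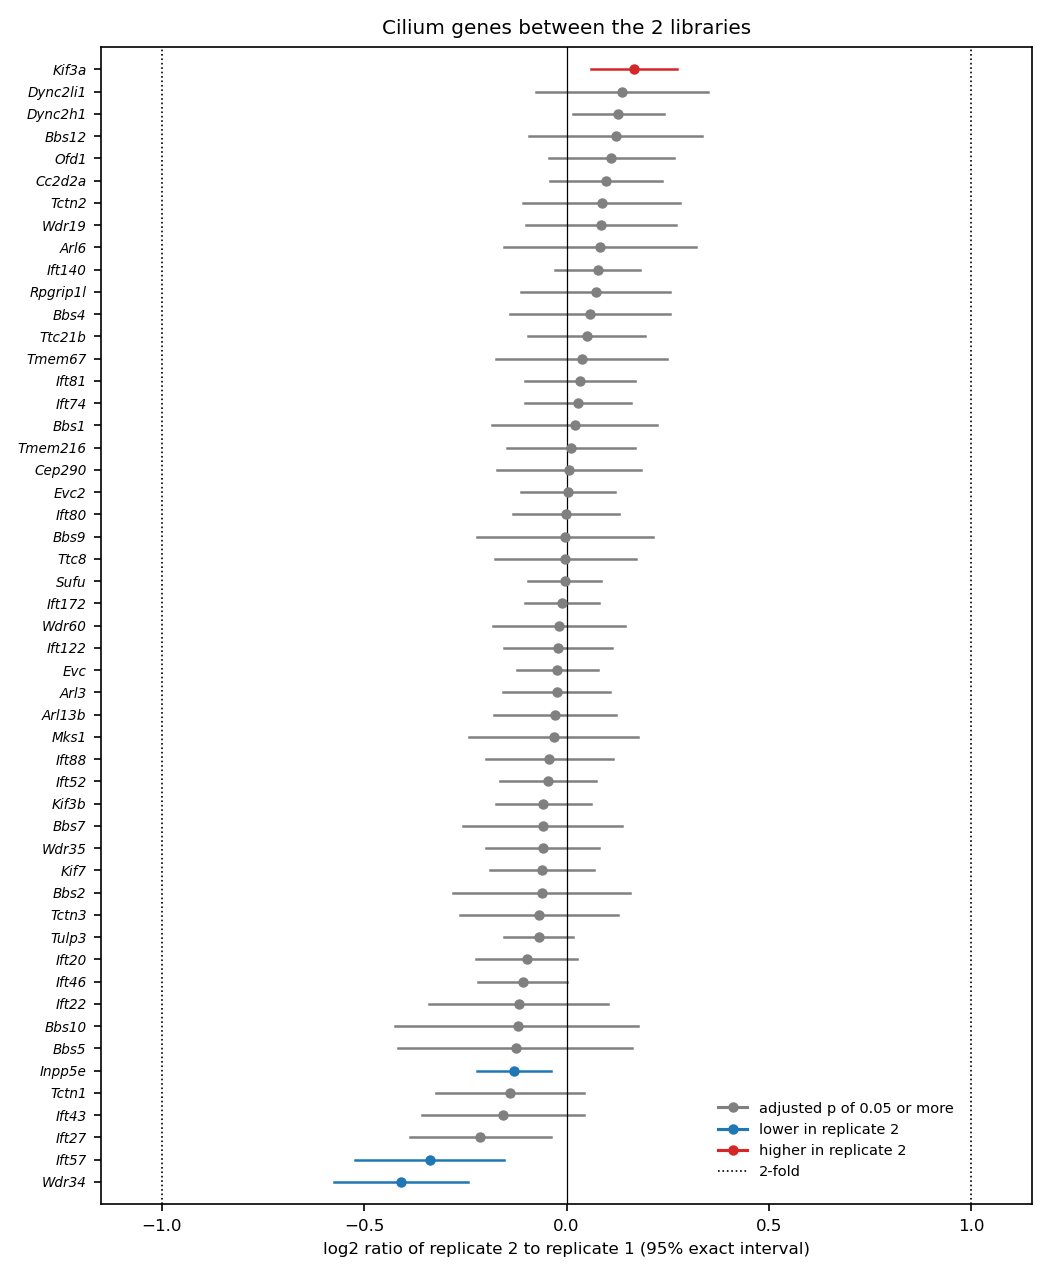
Log2 ratio of replicate 2 to replicate 1 for each of the 51 members, with the 95% exact interval for counting error and dotted lines at 2-fold. Wdr34, Ift57 and Inpp5e (blue) lay below 0 and Kif3a (red) above it at an adjusted p under 0.05, and no interval reaches the 2-fold lines.

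Other genes of the cilium were taken from lists of the pathway. All 13 other transition zone genes were expressed, with a median of 20.1 TPM, from Tmem237 at 36.8 and 35.9 TPM and Cep41 at 33.0 and 39.0 TPM to Invs at 10.5 and 10.6 TPM and Nphp4 at 5.11 and 5.76 TPM. Between the libraries 1 was higher in replicate 2 and 1 lower. Of 12 other IFT and motor genes 11 were expressed, with none higher in replicate 2 and 3 lower, and the lowest were the kinesin gene Kif17 at 2.16 and 2.01 TPM and Ttc30a2 at 0.941 and 1.03 TPM. Ttc30a1, Ttc30a2 and Ttc30b are near-identical copies, so the split of reads between them is uncertain. All 13 other BBSome and trafficking genes were expressed (median 37.7 TPM; 0 higher, 1 lower), led by Arl2bp, an Arl3 effector gene, at 143 and 150 TPM and Rab11a at 83.6 and 79.4 TPM, with Lztfl1 and Wdpcp lowest at 8.35 and 9.19 TPM and at 4.13 and 4.36 TPM.

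Centriole, basal body and satellite genes were expressed in 19 of 19 cases (median 32.8 TPM; 4 higher, 1 lower), from the satellite scaffold Pcm1 at 94.3 and 103 TPM and Cby1 at 66.6 and 57.5 TPM to Sclt1 at 10.2 and 9.15 TPM and Cep97 at 7.55 and 7.31 TPM. The genes that take the cilium apart before division were all expressed as well (7 of 7, median 38.0 TPM; 0 higher, 0 lower), led by the mitotic kinases Plk1 at 117 and 125 TPM and Aurka at 86.2 and 86.3 TPM. At the ciliary membrane, 17 of 18 receptor and Hedgehog genes were expressed (median 35.6 TPM; 4 higher, 1 lower). The coreceptor gene Gas1 had 267 and 246 TPM, lower in replicate 2, and Smo, the signal transducer, 167 and 165 TPM, while the Hedgehog-binding Hhip had 8 and 6 counts. The lowest transcripts of the disassembly list were those of Nedd9 at 20.8 and 23.8 TPM and Kif24 at 13.3 and 13.4 TPM. All genes of these 6 lists were tested, and their counts stand beside 8.85% higher and 8.65% lower over all genes tested. No gene of these 6 lists was called with a 2-fold difference, beside 1.26% of all genes tested.

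Genes of motile cilia, which carry dynein arms and beat, stood lower. Of 20 listed, 17 were found, 8 were expressed and 1 had at least 10 TPM in both libraries, with a median of 1.12 TPM. That gene was Tekt2, a tektin gene, at 21.96 and 18.0 TPM, followed by Ccdc39 at 5.54 and 6.87 TPM. At the low end, the outer arm dynein gene Dnah5 had 6 and 3 counts and Deup1, a gene of centriole amplification in multiciliated cells, 5 and 3 counts. Dnah9, with 62 and 27 counts, was lower in replicate 2 by a log2 ratio of -1.0 (adjusted p = 0.0152, exact binomial). With Tekt2 it made 2 of the 14 genes of the list tested that were lower, where 8.65% of all genes tested were lower, and none was higher. Of the regulators of multiciliated cells, Mcidas had 0 counts in both libraries, which allows a mean of up to 0.163 TPM at a floor of 3 counts per library, Gmnc had 4 and 2 counts and Foxj1 23 and 18 counts (1.03 and 0.944 TPM). Of 7 multiciliated epithelium markers found, 2 were expressed, with a summed level of 7.65 and 7.20 TPM.

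**Figure D3:**
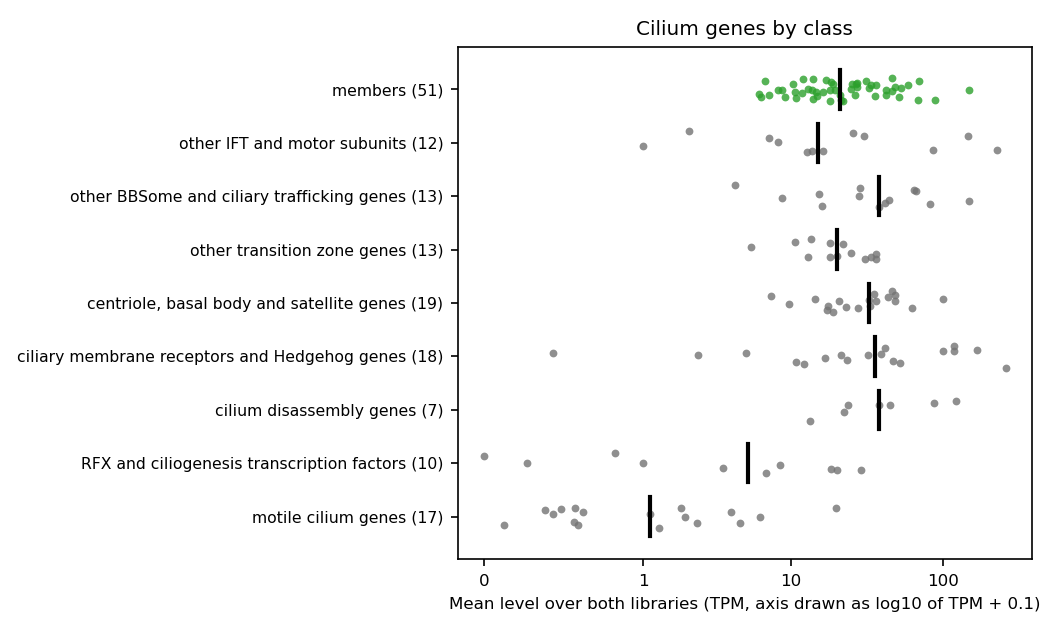
Mean level over both libraries (TPM, log axis offset by 0.1 so that 0 can be shown) of the 51 members (green) and of 8 lists of other cilium genes (grey), with the number of genes found in brackets and medians as vertical lines. The members lie between 6.14 and 146 TPM around a median of 21.2 TPM, and the motile cilium genes around 1.12 TPM.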

How the data were processed

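Per the submitters' processing notes, STAR 2.4.0a, SAMtools 1.3, featureCounts and the build mm9 were used; per the labels' protocols, libraries came from polyadenylated RNA with a stranded kit. The annotation release and strand setting are not given in the sources used here. Every deposited file holds the raw count and the length of each gene, and the TPM values the authors computed, which equal count over length scaled to a fixed sum. Of the genes matched to GENCODE M21 (GRCm38), 56.6% had identical coordinates, so positions are given as GRCm38. Features that overlap can gain or lose reads, depending on the counting settings. By GENCODE M21 exons, 10 members share exon bases with another listed gene. All shares of exon bases given here are of M21 exons, not of the deposited models.

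Levels are means over the 2 libraries, and with n = 2 the SD covers only the spread between these pools. Ratios were taken after adding 0.5 to each count and scaling with edgeR's TMM factors (version 4.0.16), with exact (Clopper-Pearson) 95% intervals from scipy 1.17.1. The test was checked on counts simulated with counting error only, so that check does not cover spread between libraries. All intervals and floors reflect counting error alone, because the reads carry no molecular identifiers and so need not be separate molecules. Alternatives were library totals, DESeq2 1.42.0 size factors, no filter, an edgeR exact test with dispersion, a length correction, rescaled TPM, other thresholds and leaving out a library. The members and lists were chosen with earlier results of these data known. All members were named, and from each list the 2 highest and 2 lowest genes by TPM and any past 2-fold, apart from 1 result that is not reported here; neighbouring genes whose values are discussed were named too. Rfx7, Rfx3, Rfx2, Rfx4, Myb, Foxj1, Kifap3, Gata4 and Wt1 fall outside it and were picked with their values known. The same holds for Bbip1, Mkks, Cluap1, Traf3ip1, Hspb11, Ttc26, Ttc30a1 and Ttc30b. Of the motile cilium genes, Dnai1, Dnai2 and Spag6l were not analysed here.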

Additional observations from a re-analysis of the deposited data

How the results depend on the processing

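No paired analysis was possible because the study has 1 group. All 51 members were expressed under each alternative run: 1 CPM or 5 TPM as the threshold, rescaled TPM, M21 gene lengths and either library alone. The count at 10 TPM or more, 43 as reported, was 47 with TPM rescaled over nuclear protein-coding genes, 41 with M21 lengths and 43 to 44 with 1 library left out. The median of the members' mean TPM, 21.2 as reported, was 26.8 with rescaled TPM, 20.8 with M21 lengths and 20.4 without Ift22, and 20.4 to 20.6 with 1 library left out. M21 lengths and the omission of Ift22 were added after the data were seen. By role, 7 of 7 places were kept with rescaled TPM and with either library alone, and 5 of 7 with M21 lengths and among members that share no exon bases, where Hedgehog transduction and the motors changed places. Of the members called between the libraries, 1 higher and 3 lower, edgeR's exact test with dispersion called 0 and 0, and it called 146 of all genes tested (0.751%) where the binomial test called 3399. Library totals, DESeq2 size factors, no filter and the length correction left 1 higher and 3 lower, with the same 4 genes. The edgeR dispersion was estimated from the same 2 libraries that it compared, and the length correction changes ratios and not p-values. Leaving out a library leaves no comparison between libraries. Depth limited the members little, since the lowest had 169 counts.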
